A study of Mus musculus with 3 samples.

Results

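The clustered protocadherin genes are 57 protein-coding genes on mouse chromosome 18 whose symbols begin with Pcdha, Pcdhb or Pcdhg. They were taken by symbol from 21631 protein-coding genes on chromosomes 1 to 19 and X, and they form an alpha cluster of 14 genes, a beta cluster of 22 and a gamma cluster of 21. Chromatin accessibility was measured in whole brain of C57BL6 mice by single-cell combinatorial indexed ATAC-seq, in which the transposase Tn5 cuts open chromatin in nuclei and leaves barcoded adapters. Nuclei were tagmented in 96 wells, pooled, and spread over 5184 nanowells for indexed PCR. The 3 libraries, named sciATACv1, sciATACv2 and sciATACv3 and called v1, v2 and v3 here, each stand for 1 version of the preparation. The number of animals and nuclei, their age and sex, and how the versions differ are not stated in the labels.

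Clustered protocadherins are cell adhesion proteins of the neuronal surface that bind copies of themselves on neighbouring cells. Each alpha and gamma gene has its own promoter and its own large first exon, called the variable exon, which encodes the extracellular and transmembrane parts and is spliced to constant exons shared by the whole cluster. Each beta gene is a single large exon. A neuron switches on a small, largely random choice of the alternate promoters, while the C-type genes at the end of the alpha and gamma clusters are used more widely. The factors CTCF and cohesin, promoter DNA methylation and distant enhancers take part in that choice. The resulting mix of proteins lets a neuron tell its own branches from those of others.

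The deposited data are lists of accessible regions (peaks), 1 per library, with positions and no heights or read counts. The v1 list held 622754 peaks, v2 850991 and v3 512023. A peak pools all nuclei of its library, so a region open in few nuclei and a weakly open one cannot be told apart, and a missing peak does not show closed chromatin. With 1 library per version there is no spread between replicates, no test between versions was run, and intervals cover counting error only. Of 16 marker genes of neurons, astrocytes, oligodendrocytes, microglia and endothelial cells, 15 had a peak no further than 1 kb from an end in v1 and 16 in v2 and v3, as did 2 of 3 liver genes in each library, Serpina1a being the exception. The share of all protein-coding genes with such a peak was 81.0%, 84.8% and 80.6%.

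Almost every clustered protocadherin gene carried a peak at its start. A peak lay within 1 kb of the start of 53 of the 57 genes in v1 (93.0%, 95% Clopper-Pearson interval 83.0 to 98.1), of 52 in v2 (91.2%, 80.7 to 97.1) and of 55 in v3 (96.5%, 87.9 to 99.6). Among 17274 other protein-coding genes with a known strand the share was 75.1%, 80.2% and 74.8% in v1, v2 and v3. The starts of neighbouring members lie at least 4154 bp apart, so none of these 1 kb surroundings overlap. In 51 genes the start had a peak in all 3 libraries. The matching share of other genes was not computed. For v1 and v3 alone, 52 of the 57 members and 12418 of the 17274 other genes had a start peak in both.

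In the alpha cluster the same 13 of 14 genes had a start peak in each library. They run from Pcdha2 to Pcdha12 and on to Pcdhac1 and Pcdhac2. The exception was Pcdha1, the first gene of the cluster at chromosome 18, 36930285 to 37187657 (mm10), which had 0 peaks within 1 kb of its start in all 3 libraries. It also had 0 from 1 kb before to 2.5 kb after its start. All 21 gamma genes had a start peak in every library, from Pcdhga1 at the head of the cluster to the C-type genes Pcdhgc3, Pcdhgc4 and Pcdhgc5 at its end.

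The beta cluster held most of the exceptions. A start peak was present in 19, 18 and 21 of the 22 beta genes in v1, v2 and v3, and 17 had one in all 3 libraries. Pcdhb8 (37355271 to 37357610) had a start peak in v1 only, from -445 to 54 bp relative to the start. Pcdhb5 and Pcdhb18 had one in v3 only, at -237 to 262 and at -285 to 214 bp. Pcdhb11 had one in v1 and v3 and Pcdhb1 in v2 and v3, and the other beta genes had one throughout. Each of these start peaks was 500 bp wide, the narrowest width in the lists.

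The left edges of the start peaks were placed alike in many members, and the right edges varied more. Among peaks that covered the annotated first base, the median left edge lay at -271 bp in v1 (52 genes), -255 bp in v2 (51 genes) and -288 bp in v3 (54 genes). The median right edge lay at 538, 529 and 558 bp, downstream of the start. The left edge of the same gene differed by a median of 12 bp between v1 and v2, 16 bp between v1 and v3 and 17 bp between v2 and v3. For the right edge these medians were 25, 55 and 48 bp. Left edges lay within 50 bp of each other in 34 of 50, 36 of 51 and 30 of 51 genes for these pairs. Right edges did so in 29, 24 and 26 genes. The largest left-edge differences were 1213, 1123 and 1285 bp. Edges at other genes were not compared. Pcdhga12 was set off from the rest: its peak near the start began after the annotated first base, at 163 bp in v1 and 182 bp in v2 and v3.

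Median widths differed between the clusters, with ranges that overlapped. The median start peak of an alpha gene was 1071 bp wide in v1, 1104 in v2 and 1108 in v3. For gamma genes the medians were 800, 696 and 1019 bp, and for beta genes 500, 500 and 702 bp. The widest in the beta cluster covered Pcdhb12, a merged region from 37435045 to 37436560 to which v1 gave 1138 bp, v2 1075 bp and v3 1425 bp.

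**Figure D1:**
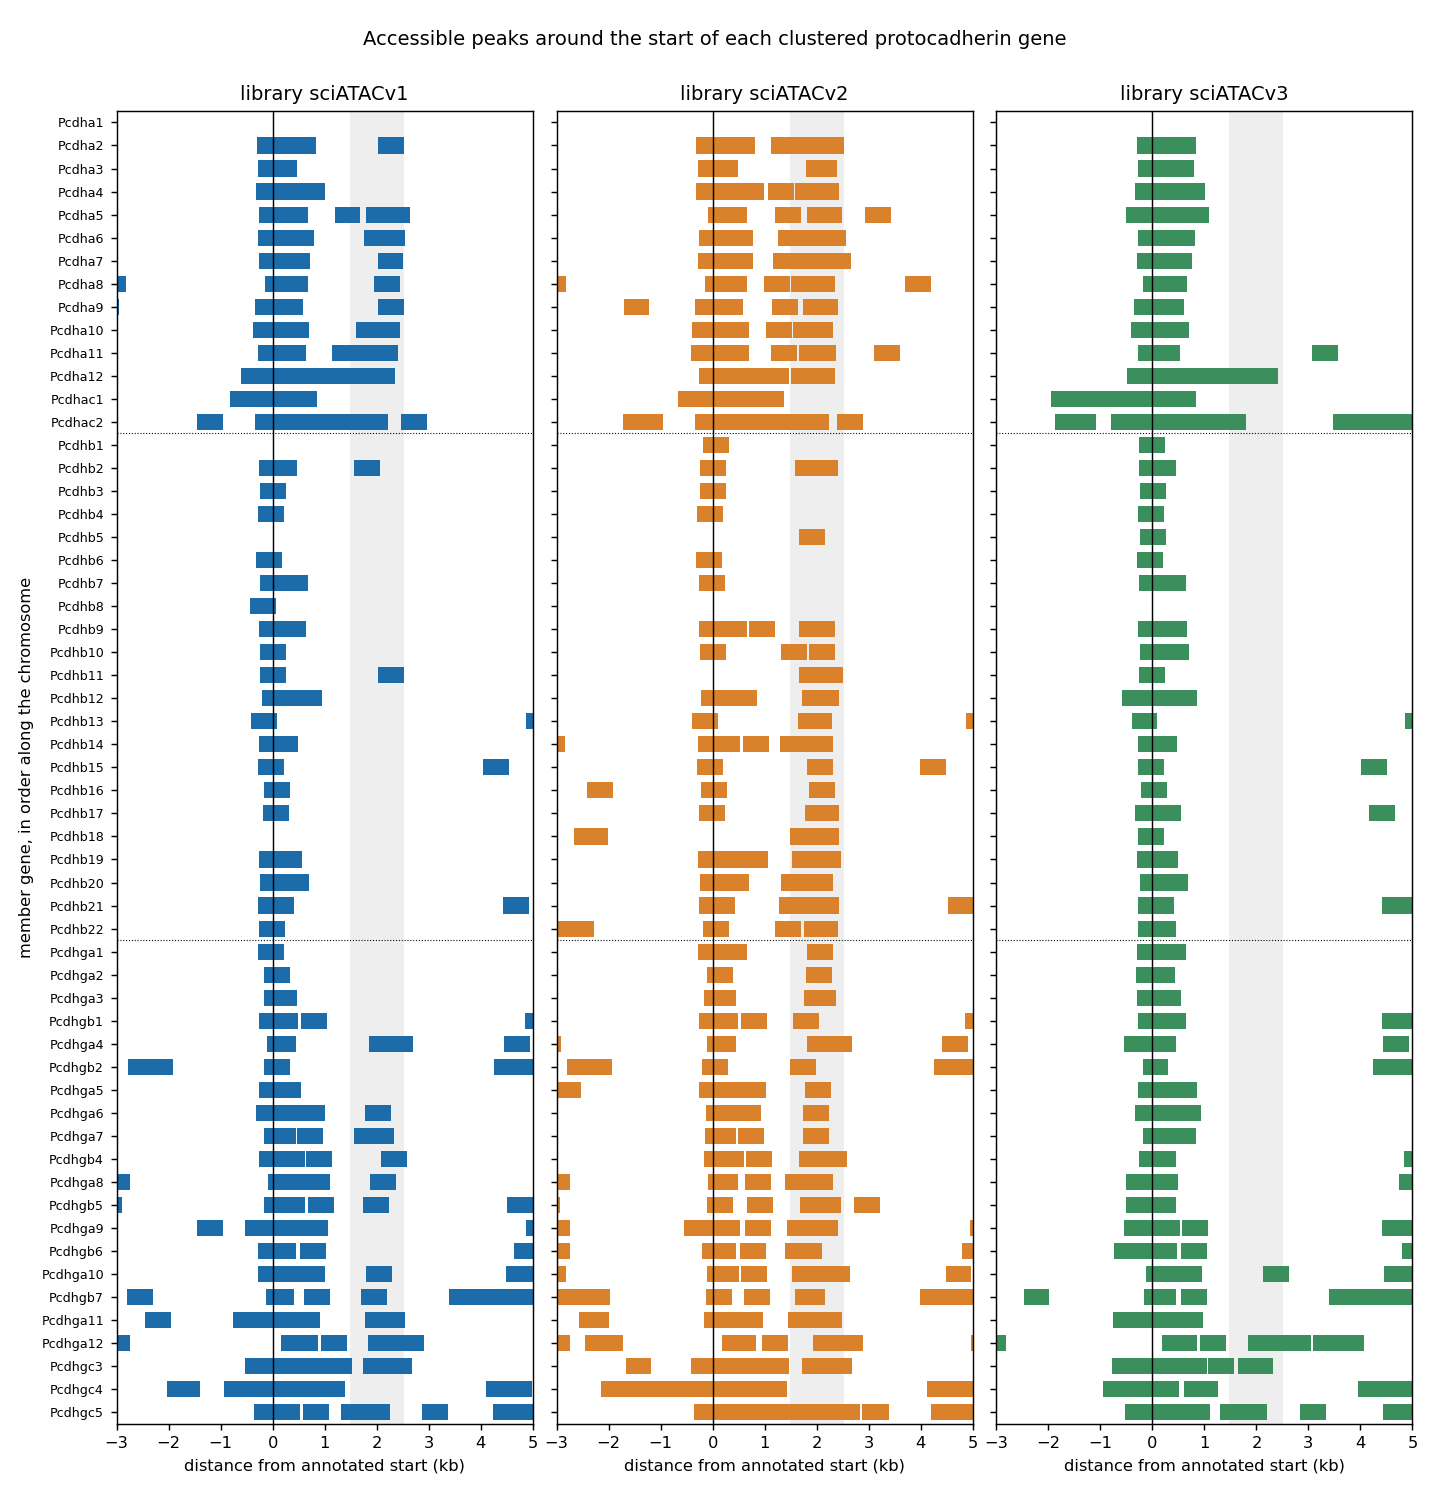
Peaks (bars) from 3 kb before to 5 kb after the annotated start of each of the 57 genes, 1 row per gene in chromosome order and 1 panel per library; dotted lines part the alpha, beta and gamma clusters and grey shading marks 1.5 to 2.5 kb after the start. A peak sits at nearly every start in all 3 panels, while the shaded strip holds a peak in 48 genes in v2, 24 in v1 and 6 in v3.

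Peaks further downstream differed between the libraries. In the stretch from 1.5 to 2.5 kb after the start, the v1 list had a peak in 24 of the 57 genes (42.1%, 29.1 to 55.9). The v2 list had one in 48 (84.2%, 72.1 to 92.5) and the v3 list in 6 (10.5%, 3.96 to 21.5). The share of other protein-coding genes with a peak there was 33.4%, 43.5% and 37.6%. The members thus lay above that share in v1 and v2, with the interval of v1 reaching below it, and below it in v3. Counting only peaks wider than 500 bp, the v1 members (12 of 57) were not above the 21.4% of other genes. This stretch was chosen after the peaks had been seen. It lies within the gene span in 20 of the 22 beta genes, and its place relative to the end of the variable exon of alpha and gamma genes was not analysed here. The stretch of the same length before the start held a peak in 4, 11 and 3 members, against 20.1%, 28.1% and 22.1% of other genes, so the high share in v2 was on the transcribed side.

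The libraries were nested in this stretch. All 24 genes with such a peak in v1 had it in v2, and all 6 of v3 had it in both v1 and v2. Between v2 and v3, 42 members had it in v2 alone and 0 in v3 alone. Among the other genes, 12.2% had a peak there in v2 and not in v3, and 6.28% in v3 and not in v2. Between v2 and v1, 24 members had it in v2 alone and 0 in v1 alone, against 13.0% and 2.99% of other genes. The v2 list is the longest and the v3 list the shortest, and the part of list length in the members' difference was not tested. Among the other genes the share was lowest in v1 when any overlap with the stretch counted. For peaks that stayed clear of the 1 kb around the start it was lowest in v3, at 22.3% against 24.7% in v1.

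In v2 most genes of each cluster had a peak in this stretch. It was present in 12, 20 and 4 of the 21 gamma genes in v1, v2 and v3. Alpha genes had it in 10, 12 and 2 of 14, and both of those in v3 were start peaks that ran on into the stretch. Of the 22 beta genes, v1 had it in 2, v2 in 16 and v3 in 0, where the Clopper-Pearson interval reaches up to 15.4%. Peaks that stayed clear of the 1 kb around the start were found in 23 members in v1, 47 in v2 and 4 in v3, against 24.7%, 32.1% and 22.3% of other genes. In v2 these separate peaks began at a median of 1589 bp and ended at 2357 bp after the start, and the medians of the end were alike in the alpha (2374 bp), beta (2352 bp) and gamma (2324 bp) clusters.

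The profile over all 57 members shows a gap between the peaks in v1 and v2. Coverage in v2 went from 51 genes at -50 bp to 15 at 1150 bp and 48 at 1950 bp. In v1 it went from 52 to 5 at 1550 bp and 23 at 2050 bp. The v3 profile fell from 54 to 3 at 1600 bp and hardly rose again, to 5 at 2150 bp. In the beta cluster in v2, 18 of 22 genes were covered at -150 bp, 1 of 22 at 1100 bp after it and 16 of 22 at 1900 bp after it. In the gamma cluster in v2, coverage went from 21 of 21 genes at 200 bp to 4 at 1200 bp and 20 at 1950 bp. In the alpha cluster in v1 it went from 13 of 14 genes to 2 at 1000 bp and 10 at 2050 bp. In v2 the alpha gap was shallower, from 13 genes to 4 at 850 bp and 12 at 1850 bp. The other protein-coding genes showed no second maximum: their coverage in v2 was highest 150 bp after the start, at 71.6%, and had dropped to 30.0% at 1500 bp.

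**Figure D2:**
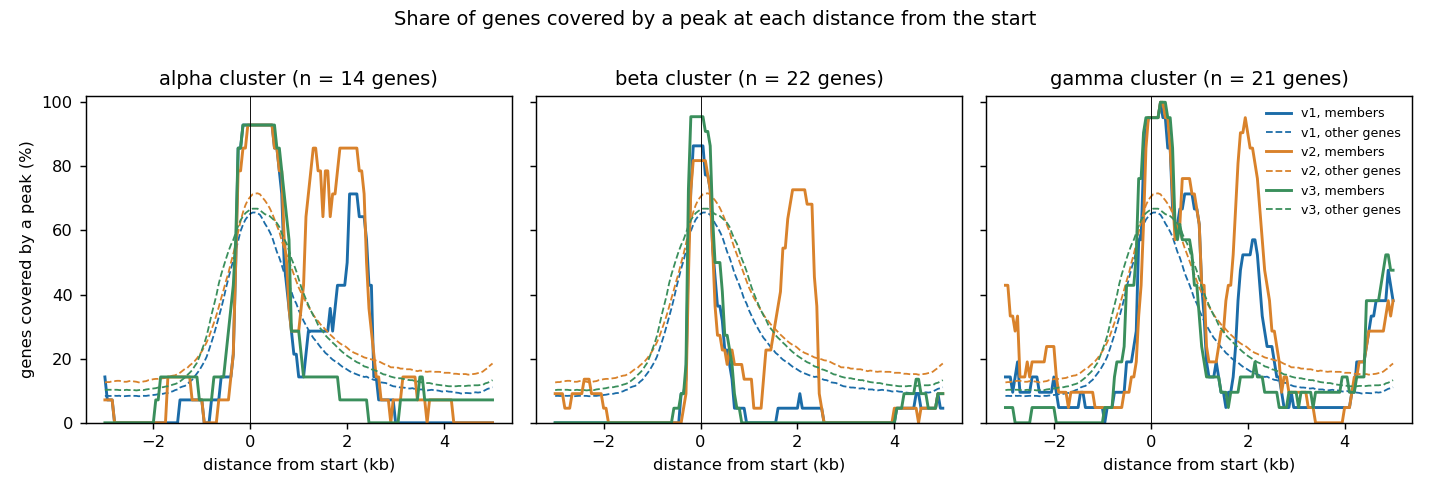
Percentage of genes covered by a peak at each distance from the start in steps of 50 bp, for the alpha, beta and gamma clusters (solid lines) and for 17274 other protein-coding genes (dashed lines), coloured by library. All libraries share the maximum at the start. The second maximum near 2 kb is high in v2 (20 of 21 gamma genes at 1950 bp) and lower in v1, where beta genes reach only 2 of 22. In v3 it is absent from the alpha and beta genes and small in the gamma genes (4 of 21 at 2150 bp).

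Single genes show the arrangement. Pcdha11, an alternate alpha gene, had in v1 peaks at -284 to 643, 1132 to 1631 and 1637 to 2410 bp. In v2 they lay at -419 to 692, 1121 to 1620 and 1670 to 2374 bp, and in v3 only the peak from -278 to 532 bp was present over the first 2.5 kb. Pcdha5 had the same numbers, and these 2 genes and Pcdhac2 had the most peaks of the alpha cluster from 1 kb before to 2.5 kb after the start. Pcdha12, the last alternate alpha gene, was covered without the gap in v1 (-602 to 2352 bp) and v3 (-485 to 2420 bp).

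Pcdhb10 and Pcdhb14 were among the beta genes with the most such peaks, with 1 in v1, 3 in v2 and 1 in v3 each. Pcdhb14 had a start peak at -272 to 479 bp in v1 and -284 to 469 bp in v3. The v2 list added peaks at 578 to 1077 and 1291 to 2308 bp beside the start peak at -275 to 532 bp. The downstream peak of Pcdhb21 in v2, from 1276 to 2426 bp, was the widest of its kind in the cluster and was met by no v1 or v3 peak. At Pcdhb5, Pcdhb11 and Pcdhb18 the v2 list had this second peak and no peak at the start. At Pcdhb5 it lay at 1665 to 2164 bp.

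The gamma genes Pcdhgb7 and Pcdhga12 had the most peaks of their cluster in that surrounding. Pcdhgb7 had 3 in v1, 3 in v2 and 2 in v3, the one missing in v3 being the peak that v1 placed at 1694 to 2193 bp and v2 at 1590 to 2161 bp. Pcdhga12 had 3 in every library, and its last one, at 1835 to 2917 bp in v1, 1930 to 2895 bp in v2 and 1842 to 3040 bp in v3, is among the few second peaks found in v3. Pcdhga1 and Pcdhga2 were among those with the fewest, 1, 2 and 1 each. Several gamma genes also had a short peak just after the start peak, such as the one of Pcdhgb7 at 610 to 1109 bp in v1.

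The stretch was reached in all libraries at 6 members, the C-type genes Pcdhac2, Pcdhgc3 and Pcdhgc5 and the alternate genes Pcdha12, Pcdhga10 and Pcdhga12. At Pcdha12 in v1 and v3, at Pcdhac2 in v3 and at Pcdhgc5 in v2 this was only the start peak running on. At Pcdhac2 in v1 and v2 the start peak ran on too, to 2226 and 2234 bp, beside a separate peak from 2466 and 2385 bp. Thus 3 of the 6, Pcdhga10, Pcdhga12 and Pcdhgc3, had a separate peak in every library. The 9 members without a peak in this stretch in any library were Pcdha1, Pcdhac1, Pcdhgc4 and 6 beta genes, Pcdhb1, Pcdhb3, Pcdhb4, Pcdhb6, Pcdhb7 and Pcdhb8. All these beta genes stand in the first part of the cluster. From Pcdhb9 to Pcdhb22 every beta gene had the second peak in v2. Those 14 genes are a stretch noticed after the values had been seen. The shares of other genes with a peak 1.5 to 2.5 kb after the start in all libraries, or in none, were not computed. In both v1 and v3, 4834 of 17274 other genes had one there, against 6 of 57 members.

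**Figure D3:**
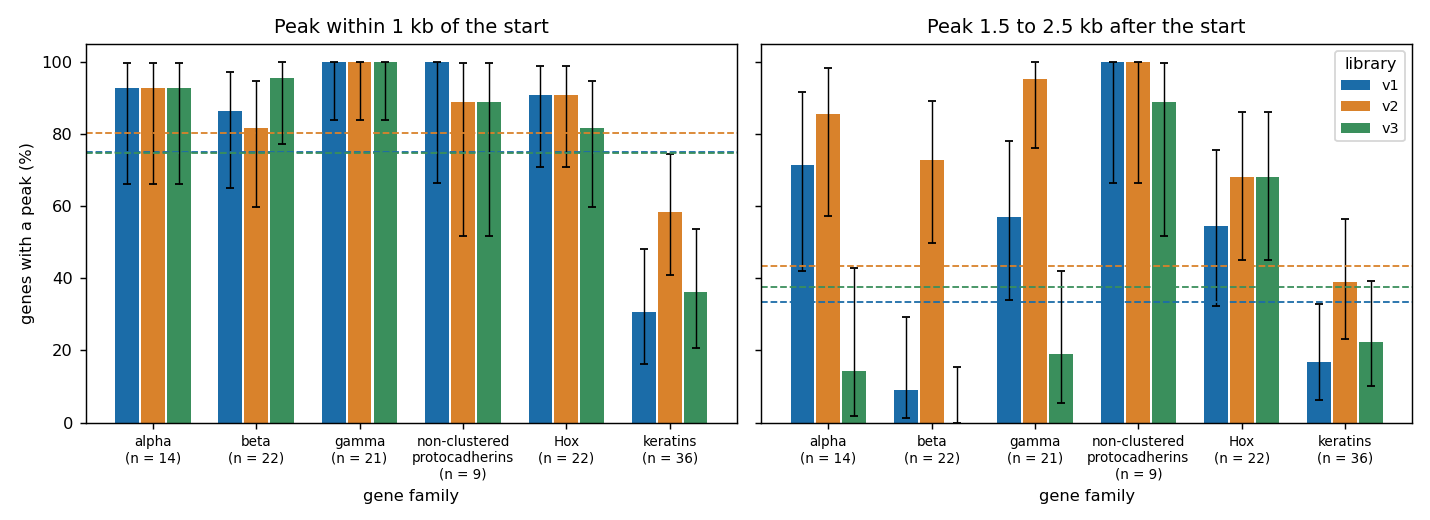
Percentage of genes with a peak within 1 kb of the start (left) and 1.5 to 2.5 kb after it (right) for the alpha, beta and gamma clusters and 3 other families, with 95% Clopper-Pearson intervals as error bars; dashed lines give the share of other protein-coding genes in each library. On the right the beta genes go from 72.7% in v2 to 0 in v3. The non-clustered protocadherins stand at 100, 100 and 88.9% in v1, v2 and v3. Of the 3 other families only genes with a known strand are shown.

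Other families give a measure of how often this stretch holds a peak elsewhere. Only their genes with a known strand were counted. These were 9 of 12 non-clustered protocadherin genes, 22 of 39 Hox genes and 36 of 53 keratin genes. Of 9 non-clustered protocadherin genes, which lie outside the clusters, 9 had a peak from 1.5 to 2.5 kb after the start in v1, 9 in v2 and 8 in v3. Hox genes, the clustered regulators of body axis patterning, had one in 12, 15 and 15 of 22 genes. Keratin genes, the clustered genes of epithelial filaments, had one in 6, 14 and 8 of 36, and a start peak in 11, 21 and 13. Start peaks were present in 20, 20 and 18 of the 22 Hox genes and in 9, 8 and 8 of the 9 non-clustered protocadherin genes. These families differ in the number of genes and in exon layout, and the differences between them were not tested.

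Several starts of the C-type genes lay in wide accessible stretches, though not in every library, and some alternate genes were as wide. The start peak of Pcdhgc5 was 894 bp wide in v1, 3182 in v2 and 1628 in v3. That of the alternate gene Pcdha12 was 2955, 1730 and 2906 bp wide. The start peak of Pcdhac2 ran from -338 to 2226 bp in v1, -335 to 2234 bp in v2 and -795 to 1803 bp in v3. Pcdhac1 was covered from -828 to 852 bp in v1, -666 to 870 bp in v2 and -1951 to 842 bp in v3. Pcdhgc5 had the widest merged region of the gamma cluster, 3915 bp at 37819027 to 37822941, of which v1 covered 2829 bp, v2 3710 bp and v3 3033 bp. At Pcdhgc4 the v2 list had a single peak from -2154 to 1439 bp, where v1 had peaks at -941 to 444 and 447 to 1395 bp. The v3 peaks there lay at -952 to 519 and 601 to 1255 bp. Pcdhgc3 was covered from -535 to 1517 bp in v1, -407 to 1469 bp in v2 and -780 to 1042 bp in v3.

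The widest region of the alpha cluster lay away from the starts. It spanned 4421 bp at 37147142 to 37151562, 3464 bp after the start of Pcdhac2 and inside the span that all alpha genes share, and v1 covered 2146 bp of it, v2 2731 bp and v3 3728 bp. A region of 3889 bp at 37780810 to 37784698 lay in the gamma cluster between Pcdhga12 and Pcdhgc3, and v1 covered 3423 bp of it, v2 2898 bp and v3 3064 bp. Both were found in all libraries.

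**Figure D4:**
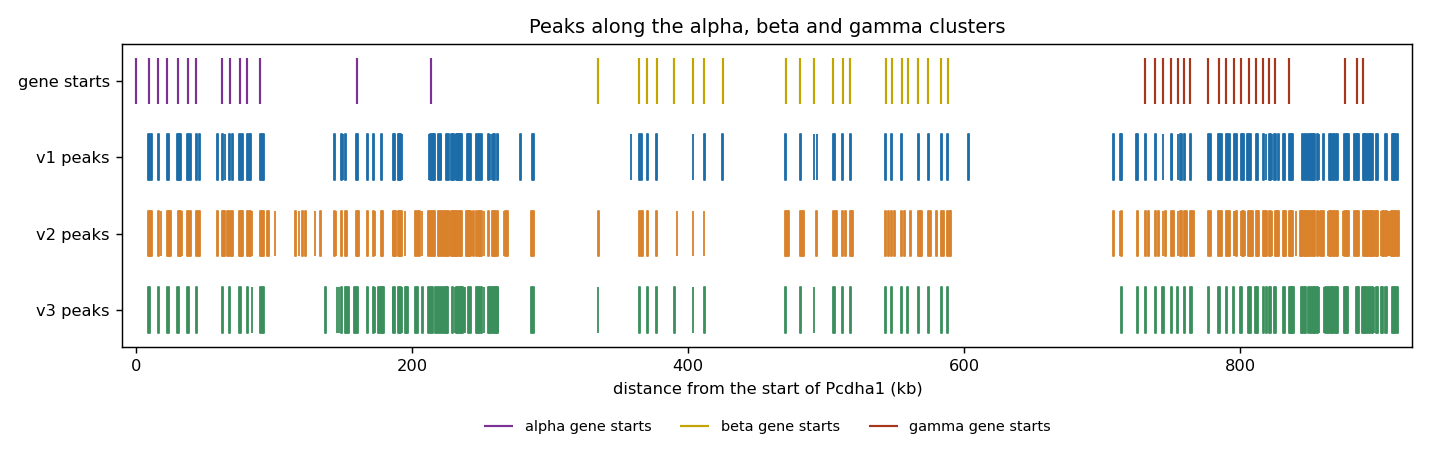
Gene starts (top, coloured by cluster) and peaks of each library (bars, drawn at least 0.5 kb wide) along the locus, as distance from the start of Pcdha1. Peaks crowd toward the end of the alpha and gamma clusters, while in the beta cluster they line up with the gene starts and the stretches on either side of it are nearly empty.

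Counted over whole clusters with 5 kb on each side and each peak once, the alpha cluster had 65 peaks in the v1 list, 95 in v2 and 64 in v3. The gamma cluster held 70, 95 and 62, and the beta cluster 22, 39 and 21. Per Mb this was 242 (exact Poisson interval 187 to 308), 354 (286 to 432) and 238 (183 to 304) peaks in the alpha cluster. The gamma cluster had 368 (287 to 465), 500 (404 to 611) and 326 (250 to 418), and the beta cluster 82.6 (51.7 to 125), 146 (104 to 200) and 78.8 (48.8 to 120). All protein-coding gene windows together, each a gene span with 5 kb on each side, had 352, 453 and 303 peaks per Mb. The alpha and beta clusters stood below that average in every library. The intervals of the beta cluster did not reach it in any library, and those of the alpha cluster did not in v1 and v2. The gamma intervals included it in all 3. Chromosome 18 as a whole had 271, 369 and 210 peaks per Mb in v1, v2 and v3. In every library the alpha interval included that value, the beta interval lay below it and the gamma interval above it.

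In the beta cluster nearly all peaks belonged to the genes' first kilobases. The stretches from 1 kb before to 2.5 kb after the starts make up 28.9% of that cluster and held 21 of 22 peaks in v1, 38 of 39 in v2 and 21 of 21 in v3. Outside them 0.277%, 0.270% and 0% of bases were covered. In the alpha cluster these stretches make up 18.2% of the length and held 38.5%, 34.7% and 20.3% of peaks. In the gamma cluster they make up 38.7% and held 61.4%, 52.6% and 50%.

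The v3 list had a lower share of its peaks in the alternate arrays than v1, and a higher share in the parts behind them, but within counting error. From 5 kb before Pcdha1 to 2.5 kb after the start of Pcdha12 the v1, v2 and v3 lists had 22, 32 and 12 peaks. The rest of the alpha cluster, with the C-type genes and the shared constant exons, held 43, 63 and 52. As shares of all peaks of a library, v3 over v1 was 0.663 in the array (exact conditional binomial interval 0.299 to 1.40) and 1.47 behind it (0.963 to 2.26). The gamma cluster gave 0.800 (0.463 to 1.36) for the array and 1.40 (0.855 to 2.30) for the rest. Each of these intervals includes equal shares.

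**Figure D5:**
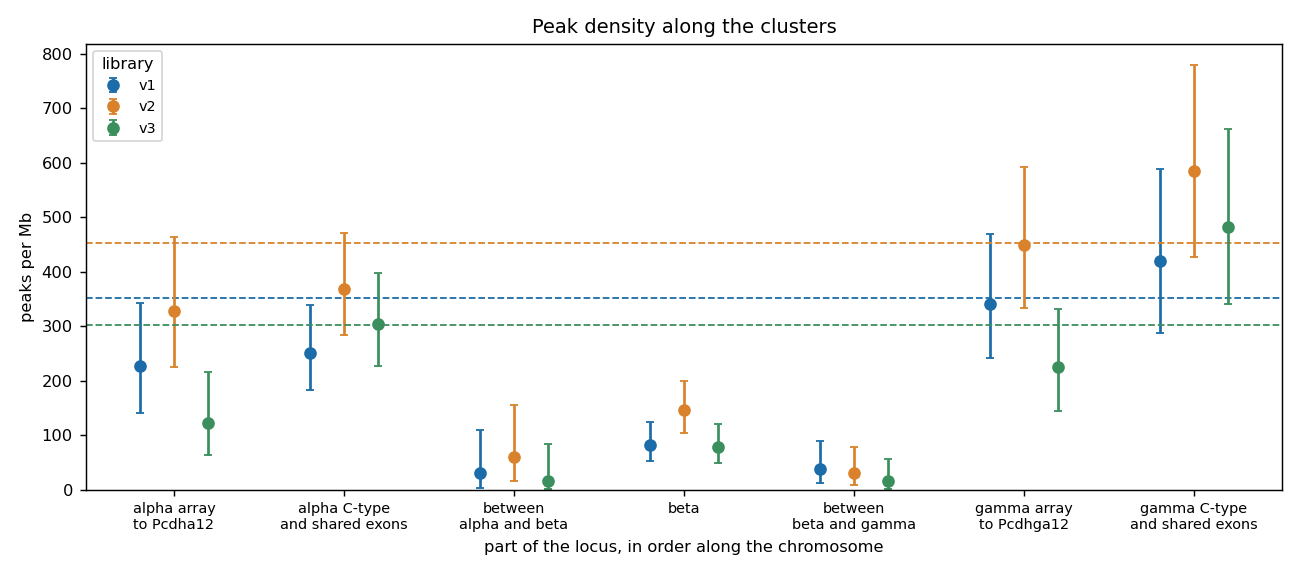
Peaks per Mb in 7 consecutive parts of the locus for each library, with exact Poisson 95% intervals as error bars; dashed lines give the density over all protein-coding gene windows. The beta cluster and the stretches beside it lie lowest, and the end of the gamma cluster lies highest with 419, 584 and 482 peaks per Mb in v1, v2 and v3.

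Between the clusters few peaks were found. The 66.1 kb between the alpha and beta clusters contained 2, 4 and 1 peaks. The 130 kb between beta and gamma held 5, 4 and 2. That stretch contains Taf7, a subunit gene of the general transcription factor TFIID, which had 2, 2 and 1 peaks within 1 kb of its upper end. It also contains Slc25a2, a mitochondrial ornithine carrier gene, which had 1 peak at an end in v1 and v2 and none in v3. The 3 other protein-coding entries inside the locus, Gm37013, Gm38666 and Gm38667, have spans that run from alpha starts to the end of the gamma cluster and share the members' peaks. The pseudogene Pcdhgb8 had 2, 2 and 1 peaks near its start.

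As whole clusters the share of peaks differed between libraries by less than counting error. Together the clusters contained 157 peaks of v1, 229 of v2 and 147 of v3. The share ratio was 1.07 for v2 over v1 (0.867 to 1.32), 1.14 for v3 over v1 (0.903 to 1.44) and 1.07 for v3 over v2 (0.861 to 1.32). The beta cluster taken alone had 1.30 (0.750 to 2.30), 1.16 (0.607 to 2.21) and 0.895 (0.5 to 1.56). These intervals include 1 and leave room for differences of the size they span.

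Gene windows say less about single alpha and gamma genes, because their spans are nested and share an end. Alpha windows held 29 to 65 peaks in v1, 32 to 95 in v2 and 28 to 64 in v3, and gamma windows 14 to 70, 21 to 95 and 15 to 62, mostly the same peaks. Beta windows held 0 to 3, 0 to 6 and 0 to 3, against medians of 8, 11 and 7 peaks over all protein-coding genes. Of the 39 members with at least 10 peaks over the 3 lists, 2 had a share more than 2-fold higher in v2 than in v1, the beta genes Pcdhb13 and Pcdhb21, where 3.88% of 16774 genes did. Each of the 2 had 2, 6 and 2 peaks in v1, v2 and v3. Both thus reached the minimum of 10 only through their v2 peaks, the same peaks that put them past 2-fold. Past 2-fold in the other direction, or in either direction between v3 and the other libraries, there were 0 members, against 1.21% of genes for v2 under v1, 5.69% above and 2.87% below for v3 over v1, and 3.10% above and 3.76% below for v3 over v2. Of the 22 beta genes 4 had enough peaks for this count.

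Merged over the libraries, the alpha cluster held 95 regions, of which 35 (36.8%, 27.2 to 47.4) had a peak in all 3. The beta cluster held 44, of which 17 (38.6%, 24.4 to 54.5), and the gamma cluster 84, of which 45 (53.6%, 42.4 to 64.5). Over all chromosomes the share was 39.0%. The share varied with the place in the gene: 55 of 67 regions within 1 kb of a member start were found in all libraries, against 3 of 53 regions from 1 to 2.5 kb after a start. Of those 53, 29 were found in v2 alone, 21 in v1 and v2, and 0 in v1 or v3 alone. Elsewhere in the clusters 39 of 103 were found in all libraries. Regions at the same places of other genes were not counted, so whether this contrast is particular to the members was not tested.

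Most protein-coding genes have a peak within 1 kb of an end (81.0%, 84.8% and 80.6%), and so did the genes whose products act at these promoters or beside the proteins. All 14 genes of the first list had one in each library, among them Ctcf, which encodes the DNA-binding factor at the promoters and held 23, 28 and 26 peaks in its window, and the cohesin gene Rad21 with 16, 21 and 14. Stag1, a cohesin subunit gene, had the most, with 136, 189 and 173. Smchd1, which encodes a chromatin protein that takes part in silencing the clusters, had 54, 74 and 64. All 14 genes for partners and processing had one too. The most peaks there lay in the protein kinase C gene Prkca with 219, 246 and 196, and the kinase gene Ptk2, whose product binds the shared cytoplasmic part, had 134, 150 and 128.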

How the data were processed

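Whole brain nuclei of C57BL6 mice gave 1 peak list for each of 3 library versions. The authors deposited peak positions without score or count; ArchR, MACS2 and the build mm10 are named per the submitters' processing notes. Versions, thresholds, aligner, the handling of reads that match several gene copies and depth are not stated there. Gene spans came from RefSeq GRCm38.p6, the same build, and strand from its promoter table, which gave 17274 other protein-coding genes. As available, that table gave no strand for chromosome 18. The other genes thus include none of the 511 protein-coding genes there, and 3846 genes elsewhere without a strand were also left out. Members were read from their lower coordinate: alpha and gamma spans share their upper end (to within 1240 and 10 bp), and beta genes are taken to run the same way. The planned promoter letter counts were not made. Overlap needed 1 bp. Coordinates are 1-based. The counting functions were tested on simulated data. Python 3.11.15, numpy 2.4.6, pandas 2.3.3 and scipy 1.17.1 were used.

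Members and lists were chosen with earlier results of these data known. Named genes were the C-type genes, the 2 genes with the most and the fewest peaks from 1 kb before to 2.5 kb after the start in each cluster, members with start peaks in 0 or 3 libraries, non-members inside the locus, the gene with the most peaks of each pathway list and any gene of those lists with no peak at an end, and the widest region of each cluster. Members with a peak in that stretch in 0 or 3 libraries were named after their values were seen. Other genes were named after their values were seen. Alternatives were 0 and 20 kb flanks, wider peaks only, peak midpoints, covered length, other distances to the start and 50% cover of merged regions.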

Additional observations from a re-analysis of the deposited data

How the results depend on the processing

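Of 114 values recomputed under an alternative, 101 kept within their interval or within 1.5 times the count. With only peaks wider than 500 bp, density fell to 115, 201 and 145 peaks per Mb in the alpha cluster, 30.0, 67.6 and 41.3 in beta and 221, 274 and 231 in gamma for v1, v2 and v3, since fewer peaks were counted. Under the same setting 12 members had a peak 1.5 to 2.5 kb after the start in v1, 37 in v2 and 5 in v3, against 21.4%, 29.9% and 29.8% of other genes, so the order of the libraries was kept but the v1 members no longer lay above the other genes. The settings for that stretch were chosen after seeing the data. The 2 members past 2-fold in v2 over v1 became 0 with 20 kb flanks, with gene spans alone and with wider peaks; the cause was not tested. Start peaks were found in 39, 37 and 44 members when only wider peaks counted. The share of other genes with a start peak under that setting was not computed, so the 2 cannot be compared there. Depth is unknown, so a missing peak sets no limit on accessibility. No paired analysis was possible because each version has 1 library.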
